A study of Mus musculus with 4 samples.

Results

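The genes described here make and license ovarian steroids: the steroidogenic enzymes, the cholesterol carriers that feed them, the gonadotropin receptors that switch them on, and the hormone of the same cells, INSL3. They were chosen by name, 10 of 21887 protein-coding genes in all: Star, Scarb1, Cyp11a1, Cyp17a1, Hsd3b1, Hsd17b1, Cyp19a1, Fshr, Lhcgr and Insl3. FOXL2, the forkhead factor that marks granulosa cells and their fetal precursors, was mapped by ChIP-seq, in which DNA bound by a protein is recovered with an antibody and sequenced. The series held 2 FOXL2 ChIP samples, made with a FOXL2 antibody, and 2 input samples, made without antibody. All came from ovaries of CD1 mouse embryos at E14.5, separated from the mesonephros and pooled, and the labels name no allele or treatment for either group. The ovary at this stage still mixes germ cells, supporting cells and stroma, so a peak cannot be assigned to a cell type, and a list of positions holds no expression with which to check the tissue. The deposited values were the positions of 11438 peaks on mouse build mm10, in a single list for the ChIP samples, and each peak was 300 bp wide. The list gave no score and no value per replicate. The read depth is therefore unknown, no peak has a replicate error, no test between groups is possible, and weak binding that missed the authors' threshold would not be seen.

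Steroid synthesis starts from cholesterol. The scavenger receptor SCARB1 takes it up from lipoproteins, STAR moves it into the mitochondrion, and CYP11A1 cuts its side chain to give pregnenolone. HSD3B enzymes turn pregnenolone into progesterone, CYP17A1 opens the way to androgens, and HSD17B1 and CYP19A1 (aromatase) complete the estrogens. In the follicles of the adult ovary, theca cells make androgens under luteinizing hormone through LHCGR and granulosa cells convert them under follicle-stimulating hormone through FSHR. INSL3 is a peptide hormone of theca and Leydig cells. FOXL2 has been reported in cultured cells to repress the human STAR promoter and to activate the goat CYP19A1 promoter, which is the reason to look at these genes in a FOXL2 map.

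Of the 10 genes, 1 had a FOXL2 peak of its own. Scarb1 carried a peak 222 bp inside the gene, and it was the only one of the 10 to be the nearest protein-coding gene of any peak within 100 kb. Star, Cyp11a1, Cyp17a1, Cyp19a1, Hsd17b1 and Insl3 had peaks within 100 kb, each of which lay nearest to a neighbouring gene. Hsd3b1, Fshr and Lhcgr had no peak within 100 kb. In all, 22 peaks lay in the 10 genes or within 100 kb of either gene end, no peak counted for more than 1 of them, and 21 of the 22 were nearest to one of 19 neighbours.

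These counts were set against all 21887 protein-coding genes. A peak within 100 kb was found for 7 of the 10 genes (70%), and 76.3% of all genes had one, so that count is near the background. The median number of peaks per window was 2 for the 10 genes and 2 for all genes. A peak in the gene or within 10 kb was found for 2 of 10 (20%), against 49.6% of all genes. That gap depends on the distance chosen, because Insl3, Star and Cyp17a1 had their nearest peak between 10 and 20 kb away. Within 5 kb the shares were 1 of 10 (10%) against 45.9%, within 20 kb 5 of 10 (50%) against 56%, and within 50 kb 6 of 10 (60%) against 67.5%, so the counts at 20 and 50 kb are near the background. A peak inside the gene was found for 1 of 10 (10%), against 36.2%. Being the nearest gene of at least 1 peak within 100 kb applied to 1 of 10 (10%), against 40.4%. A peak within 1 kb of a gene end and nearest to that gene was found for 1 of 10 (10%), against 31.2%. Of the 22 pairs of a peak and one of these genes, 4.55% were nearest pairs, against 21.9% of the 50612 such pairs over all genes. No test was made of these differences, and 1 further gene would move each share of 10 genes by 10 percentage points.

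**Figure D1:**
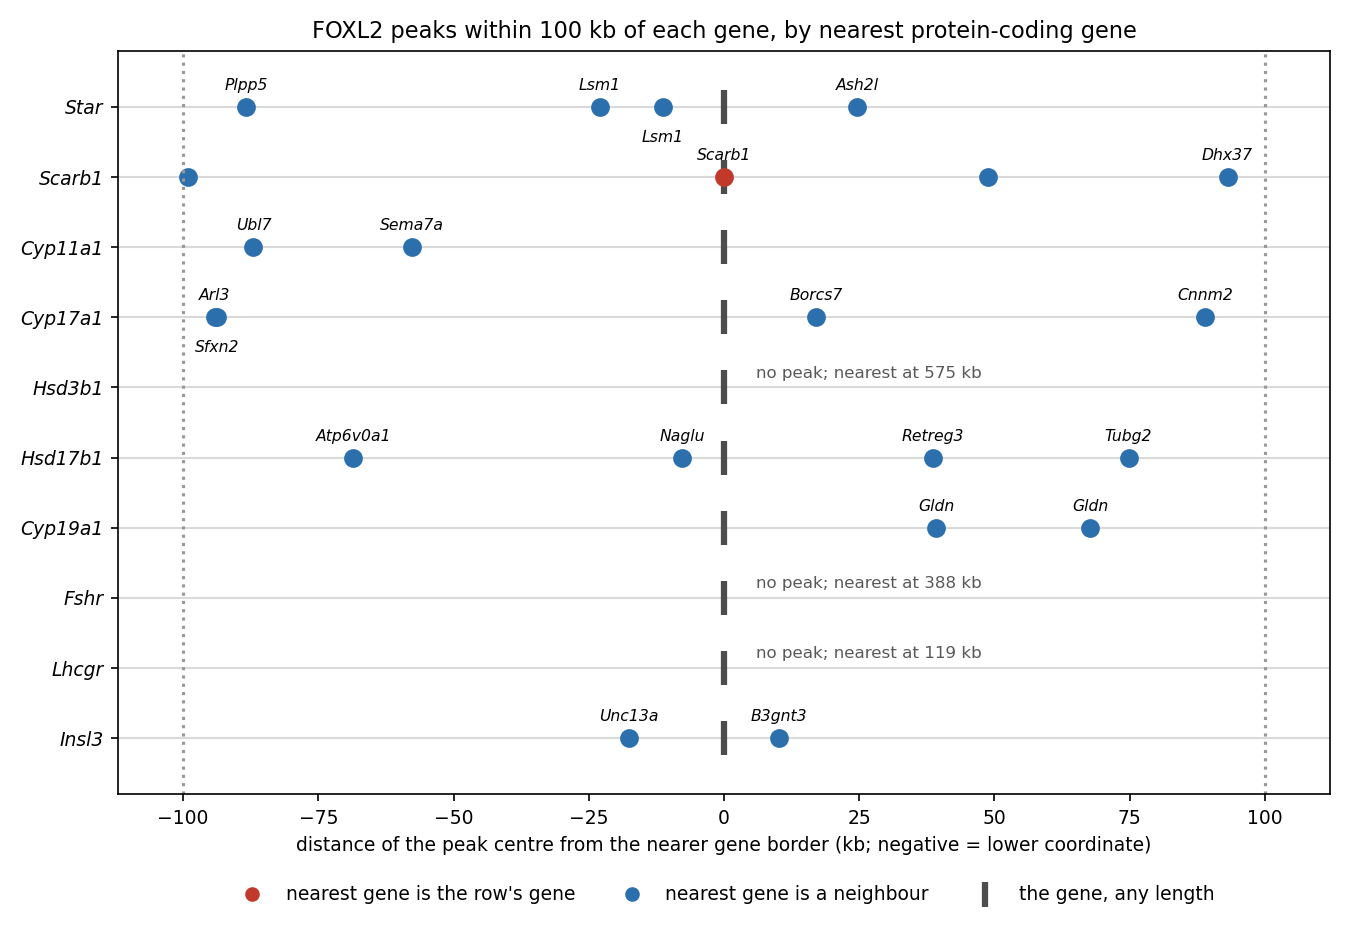
FOXL2 peaks within 100 kb of each gene, 1 row per gene. The horizontal axis is the distance in kb from the peak centre to the nearer end of the gene, with lower coordinates to the left and the gene drawn as a bar of no length; peaks are labelled with their nearest protein-coding gene where it is named in the text. The single red point is the peak inside Scarb1; the other 21 points are nearest to neighbours, and the rows of Hsd3b1, Fshr and Lhcgr are empty.

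How many other genes share a window limits how often a gene can be the nearest. The 10 genes had between 0 and 11 other protein-coding genes within 100 kb, with a median of 3.5, and all genes had a median of 4. Among genes with 0 to 3 others, 2 of 5 members had a peak within 100 kb, against 67.7% of all such genes, and 1 of 5 was a nearest gene, against 47.2%. Among genes with 4 to 7 others, 4 of 4 had a peak within 100 kb (81.5% of all such genes) and 0 of 4 was a nearest gene (40.2%). With 8 or more others, Hsd17b1 had a peak within 100 kb (83.1% of all such genes) and was the nearest gene of none (29.2%).

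The genes' own start regions show where peaks were missing. Promoters were read from a RefSeq table of build GRCm38.p6, the assembly that mm10 denotes, as 250 bases before to 50 after each listed start. The table held 6 of the 10 genes (Cyp11a1, Cyp19a1, Hsd3b1, Fshr, Lhcgr and Insl3) with 9 starts. The sequences below are the outermost start of each of the 6, shown because none has a peak within 1 kb, followed by 4 neighbours whose starts have a peak within 1 kb. Each runs 5′ to 3′ on the strand of its gene, and the capitals mark CpG dinucleotides. The 2 sets overlap in CpG count, with 16 in both Insl3 and Ubl7 and 14 in both Lhcgr and Borcs7. Neighbours with a peak within 1 kb and few CpG, Atp6v0a1 (7) and Tubg2 (8), are not shown.
Cyp11a1, chr9:57997774-57998073, plus strand: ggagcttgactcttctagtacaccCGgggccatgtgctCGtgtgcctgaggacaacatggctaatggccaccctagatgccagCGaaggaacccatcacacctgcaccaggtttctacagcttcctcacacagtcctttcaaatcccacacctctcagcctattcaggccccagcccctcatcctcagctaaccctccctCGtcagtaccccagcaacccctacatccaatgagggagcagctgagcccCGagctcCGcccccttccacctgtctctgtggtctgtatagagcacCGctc
Cyp19a1, chr9:54268115-54268414, minus strand: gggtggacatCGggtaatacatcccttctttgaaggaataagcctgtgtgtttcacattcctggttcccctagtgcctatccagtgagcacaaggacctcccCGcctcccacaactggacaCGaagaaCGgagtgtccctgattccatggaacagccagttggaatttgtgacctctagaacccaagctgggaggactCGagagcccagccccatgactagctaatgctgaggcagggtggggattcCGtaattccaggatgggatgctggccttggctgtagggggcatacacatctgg
Hsd3b1, chr3:98859745-98860044, minus strand: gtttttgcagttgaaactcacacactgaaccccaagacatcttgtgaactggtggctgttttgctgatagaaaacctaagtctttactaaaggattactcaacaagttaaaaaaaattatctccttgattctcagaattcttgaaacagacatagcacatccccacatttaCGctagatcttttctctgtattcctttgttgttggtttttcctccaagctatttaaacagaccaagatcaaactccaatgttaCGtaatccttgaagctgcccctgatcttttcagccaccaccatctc
Fshr, chr17:89200626-89200925, minus strand: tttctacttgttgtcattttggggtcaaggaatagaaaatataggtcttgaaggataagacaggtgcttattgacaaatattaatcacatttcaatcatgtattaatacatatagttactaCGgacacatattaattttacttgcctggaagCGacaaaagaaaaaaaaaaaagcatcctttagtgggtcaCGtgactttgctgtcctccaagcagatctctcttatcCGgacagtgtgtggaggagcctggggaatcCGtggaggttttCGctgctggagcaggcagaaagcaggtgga
Lhcgr, chr17:88791965-88792264, minus strand: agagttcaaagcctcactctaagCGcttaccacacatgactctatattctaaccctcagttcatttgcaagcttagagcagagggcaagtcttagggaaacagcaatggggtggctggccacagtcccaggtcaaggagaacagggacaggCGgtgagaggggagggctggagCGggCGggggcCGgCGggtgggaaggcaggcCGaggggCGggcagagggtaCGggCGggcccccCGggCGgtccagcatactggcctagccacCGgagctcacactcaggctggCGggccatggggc
Insl3, chr8:71689002-71689301, plus strand: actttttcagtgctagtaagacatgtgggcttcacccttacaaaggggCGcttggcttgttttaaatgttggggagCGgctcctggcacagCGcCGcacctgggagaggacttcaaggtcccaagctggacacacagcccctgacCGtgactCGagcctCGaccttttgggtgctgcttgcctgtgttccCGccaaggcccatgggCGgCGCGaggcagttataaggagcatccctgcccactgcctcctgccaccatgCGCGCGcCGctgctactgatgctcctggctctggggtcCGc
Ubl7 (neighbour of Cyp11a1), chr9:57910736-57911035, plus strand: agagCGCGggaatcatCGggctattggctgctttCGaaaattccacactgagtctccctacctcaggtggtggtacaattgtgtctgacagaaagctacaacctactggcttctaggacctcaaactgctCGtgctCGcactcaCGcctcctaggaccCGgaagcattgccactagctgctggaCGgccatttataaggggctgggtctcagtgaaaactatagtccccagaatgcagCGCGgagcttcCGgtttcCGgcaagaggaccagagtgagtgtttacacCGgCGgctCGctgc
Borcs7 (neighbour of Cyp17a1), chr19:46689656-46689955, plus strand: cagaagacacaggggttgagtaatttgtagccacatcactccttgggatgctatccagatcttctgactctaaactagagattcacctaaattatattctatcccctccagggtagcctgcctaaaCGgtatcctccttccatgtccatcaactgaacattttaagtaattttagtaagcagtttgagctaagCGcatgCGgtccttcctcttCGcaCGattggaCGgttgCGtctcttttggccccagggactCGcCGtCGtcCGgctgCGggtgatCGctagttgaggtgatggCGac
Naglu (neighbour of Hsd17b1), chr11:101069844-101070143, plus strand: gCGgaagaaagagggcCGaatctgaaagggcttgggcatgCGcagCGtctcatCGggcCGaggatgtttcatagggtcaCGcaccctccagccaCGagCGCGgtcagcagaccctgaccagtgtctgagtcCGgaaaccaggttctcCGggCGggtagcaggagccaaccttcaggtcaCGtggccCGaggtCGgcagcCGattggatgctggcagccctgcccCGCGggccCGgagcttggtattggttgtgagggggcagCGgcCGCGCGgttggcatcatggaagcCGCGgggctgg
Unc13a (neighbour of Insl3), chr8:71671708-71672007, minus strand: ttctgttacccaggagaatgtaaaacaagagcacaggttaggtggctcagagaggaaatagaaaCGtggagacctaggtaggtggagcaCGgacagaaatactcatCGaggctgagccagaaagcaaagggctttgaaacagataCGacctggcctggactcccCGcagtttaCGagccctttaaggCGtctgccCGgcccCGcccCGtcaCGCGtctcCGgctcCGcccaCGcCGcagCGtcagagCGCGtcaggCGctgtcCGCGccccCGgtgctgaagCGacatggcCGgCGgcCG

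Of the 9 listed starts of these genes, 0 had a peak centre within 1 kb, against 36.8% of the 21263 listed starts of all coding genes. This count is no separate result, since none of the 6 genes had a peak within 10 kb. Scarb1, which has a peak near a gene end, is not among the 6, and Cyp19a1 and Cyp11a1 have more than 1 start each. The start nearest to a peak was that of Insl3, with a peak at 11.53 kb. The 9 promoters held 1 to 16 CpG, with a median of 6, against a median of 13 over all coding promoters, 24 over those with a peak within 1 kb and 6 over those without. The second start of Cyp11a1 had the fewest, 1, and Insl3 the most, 16. Hsd3b1 and the innermost start of Cyp19a1 had 2 each. Fshr and the other 2 starts of Cyp19a1 had 6, the outer start of Cyp11a1 had 7 and Lhcgr had 14.

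Across all coding genes the share of starts with a peak differed between CpG classes. It was 1.71% of 6035 promoters with 0 to 4 CpG, 12.7% of 3161 with 5 to 9, 46.8% of 4426 with 10 to 19 and 68.6% of 7641 with 20 or more. The 9 promoters of the steroidogenic and receptor genes fell into the lower classes, 3 with 0 to 4, 4 with 5 to 9 and 2 with 10 to 19, and 0 with 20 or more. Lhcgr and Insl3 were the ones in the class of 10 to 19, in which 46.8% of starts had a peak. The part of CpG content in the absence of peaks was not tested. The neighbours that are nearest to a peak in these windows had 14 listed promoters, with 7 to 38 CpG and a median of 22. Of these, 12 had a peak within 1 kb of the start, a count that follows in part from their choice by a peak. GC content was 37.7 to 64% in the 9 promoters (median 51%), against a median of 56.3% in all coding promoters.

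**Figure D2:**
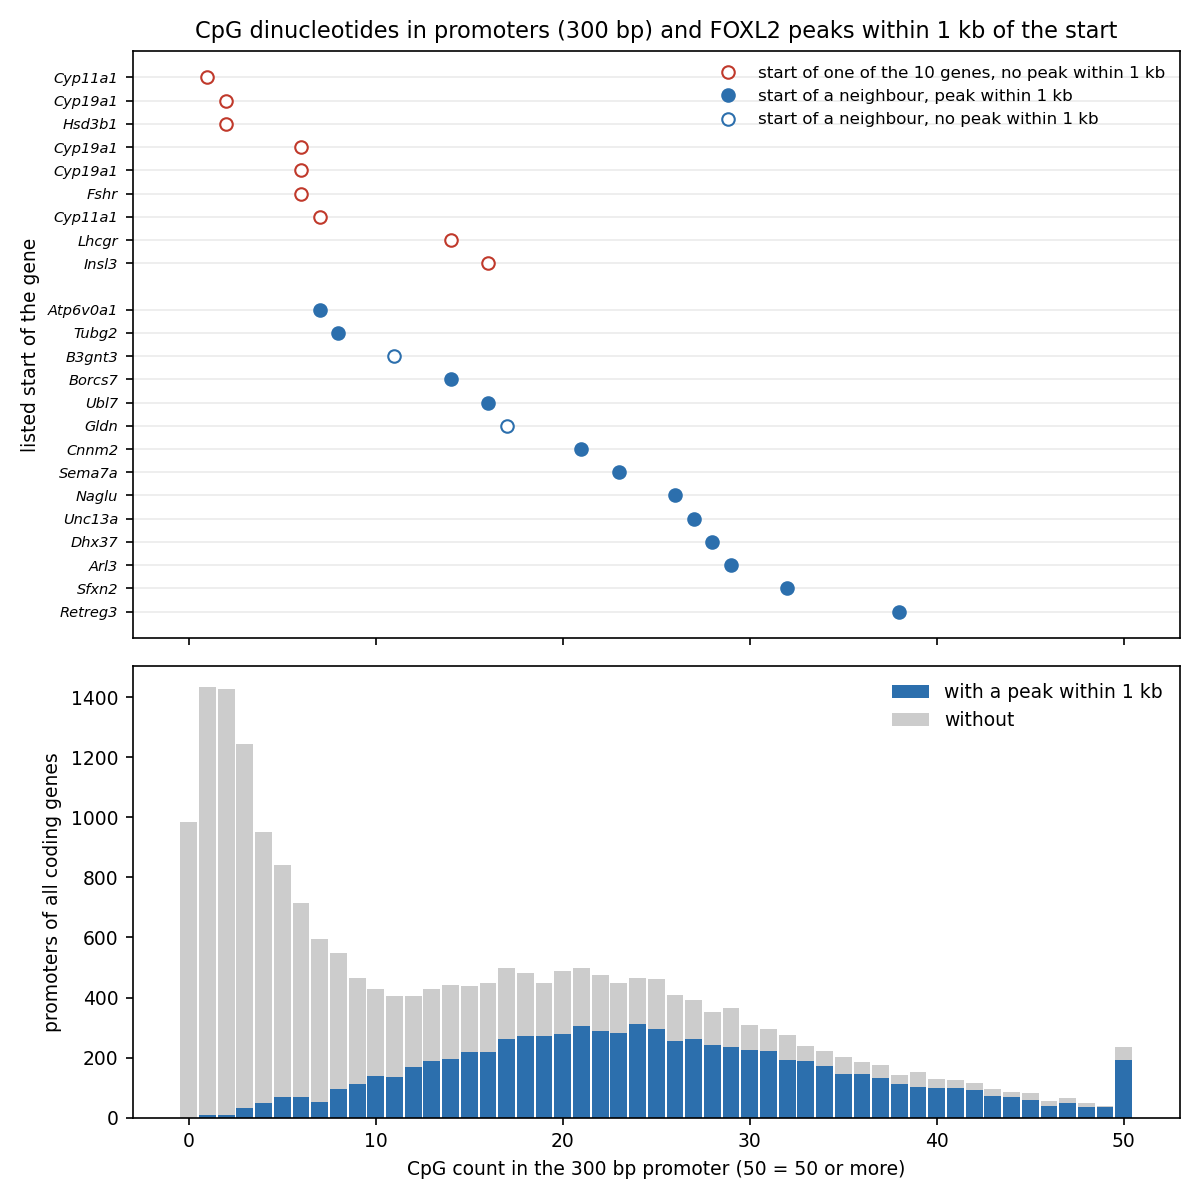
CpG count in the 300 bp promoter of each listed start (horizontal axis). The upper panel has 1 row per start of the steroidogenic and receptor genes (red) and of the neighbours nearest to a peak (blue), filled where a peak lies within 1 kb; the lower panel counts the promoters of all coding genes with (blue) and without (grey) such a peak. The 9 red starts lie between 1 and 16 CpG and are all open, whereas the neighbours reach 38.

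Short motifs were searched on both strands of the same promoters. The forkhead motif GTAAACA was in 0 of the 9, against 3.01% of all coding promoters. The monomer site AAGGTCA of the steroidogenic regulator NR5A1 was in 0 of 9, against 4.08%. The cAMP response element TGACGTCA, which CREB binds, was in 0 of 9, against 2.23%. The motif TGATAAG, known from factors of the GATA family, was in 0 of 9, against 2.13%. With shares this low over all promoters, 0 of 9 is near the background for each of these motifs. The 9 promoters also come from only 6 genes. The shorter forkhead core TAAACA, which is contained in the longer one, was in 1 of 9, that of Hsd3b1, against 11.5%. Among the neighbours, the promoters of Ubl7 and Tubg2 held the longer forkhead motif, 2 of 14. Over all coding promoters, the longer motif was in 2.7% of those with a peak within 1 kb of the start and 3.18% of those without. The shorter core was in 7.95% of those with such a peak and 13.6% of those without. These are matches of letters in 300 bp and say nothing of factor binding elsewhere.

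Scarb1, the cholesterol uptake receptor, held the one peak assigned to these genes. It lies on chromosome 5 from 125277087 to 125341094, is 64.0 kb long and had 4 peaks in its window. Its own peak, at 125340723 to 125341022, had its centre 222 bp inside the higher-coordinate end of the gene. The other 3 peaks belonged to neighbours. At Dhx37, an RNA helicase gene, a peak lay 67 bp outside the gene, 93.1 kb from Scarb1. The first peak beyond the 100 kb window, at Bri3bp, was 101 kb from Scarb1.

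Star, the mitochondrial cholesterol carrier, had peaks on both sides and none of its own. The gene lies on chromosome 8 from 25808474 to 25815982, 18 bp from Ash2l. The closest peak, at 25796969 to 25797268, was 11.4 kb from Star and 6857 bp inside Lsm1, a gene of mRNA decay; of the 4 it was the one for which Star was the second nearest gene. A second Lsm1 peak lay 140 bp inside that gene and 23.0 kb from Star. On the other side a peak lay 24.6 kb away and 7075 bp inside Ash2l, which encodes a subunit of histone methyltransferase complexes. The last was 91 bp inside the lipid phosphatase gene Plpp5, 88.3 kb from Star. The interval between the 2 peaks that flank Star spanned 43.5 kb and held Star alone among whole coding genes.

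Cyp11a1 and Cyp17a1, the enzymes at the entry to steroids and at the branch to androgens, had peaks in other genes only. Cyp11a1, on chromosome 9 from 57998024 to 58027031, had 2 peaks, both upstream of it on its own strand. The nearer, 57.7 kb away, lay 691 bp inside the semaphorin gene Sema7a and 175 bp from a listed start of it. The farther, 87.0 kb away, lay 43 bp inside Ubl7, a gene for a ubiquitin-like protein. Downstream the next peak was 286 kb away, at Loxl1. Cyp17a1, on chromosome 19 from 46667165 to 46673000, had 4 peaks. The nearest, at 46689885 to 46690184, was 17.0 kb away and 128 bp inside Borcs7, which acts in lysosome positioning. A pair of peaks at the closely spaced, divergent starts of Sfxn2 and Arl3 lay 93.7 and 94.2 kb away, 182 bp inside Sfxn2 and 216 bp inside Arl3, close to the edge of the window. The last, 89.0 kb away, was 5150 bp inside the magnesium transport gene Cnnm2 and 375 bp from a listed start of it.

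Hsd17b1, which reduces estrone to estradiol, sits in a dense run of genes and had 4 peaks, none of its own. It lies on chromosome 11 from 101077968 to 101081188, 296 bp from Naglu. The Naglu peak, at 101070079 to 101070378, lay 138 bp inside that lysosomal enzyme gene and 7.74 kb from Hsd17b1, and it is what placed Hsd17b1 among the genes with a peak within 10 kb. Peaks at Retreg3 (65 bp inside), at the proton pump gene Atp6v0a1 (38 bp) and at the gamma-tubulin gene Tubg2 (117 bp) were 38.6, 68.5 and 74.8 kb away.

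Cyp19a1, the aromatase gene, lies on chromosome 9 from 54165937 to 54268164 and is read from its higher-coordinate end. Both of its peaks were upstream, inside Gldn, a gene of myelinated nerve. The nearer, at 54307276 to 54307575, was 39.3 kb from the outermost listed start of Cyp19a1, 78.5 kb from the second and 114 kb from the third. It lay 20939 bp from the nearer end of Gldn and from its listed start, so that Cyp19a1 was the second nearest gene. The farther peak, at 54335777 to 54336076, was 67.8 kb from Cyp19a1 and 5851 bp inside the other end of Gldn. With noncoding genes counted, the nearer peak was closest to the long noncoding RNA gene Gldnos, 5855 bp away, and still not to Cyp19a1. Downstream of Cyp19a1 the next peak, at Cul5, was 499 kb away, and the peak-free interval that holds the whole gene spanned 640 kb.

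Hsd3b1 had the most distant peak of the 10. The gene lies on chromosome 3 from 98842356 to 98859794 in the cluster of Hsd3b genes. Its nearest peak was 575 kb away, and on the other side the next peak was 1303 kb away, at Gdap2. The interval between them spanned 1.89 Mb, held 15 whole coding genes, among them Hsd3b2, Hsd3b3, Hsd3b4, Hsd3b5 and Hsd3b6, and was exceeded by 1.7% of the 11414 intervals between neighbouring peaks. That share is among all intervals, and an interval picked for holding a whole gene tends to be long. Of all coding genes, 7.61% lay farther from a peak than Hsd3b1.

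Fshr and Lhcgr, the receptors of the 2 gonadotropins, are neighbours on chromosome 17 and shared a single long interval without peaks. Lhcgr spans 88716384 to 88792059, and Fshr spans 88984952 to 89200675. Both are read from the higher-coordinate end, and Fshr had 0 other coding genes within 100 kb. The nearest peak to either, at 88597217 to 88597516, lay 249 bp from the end of Ston1. It was 119 kb from Lhcgr, just outside the window, and 388 kb from Fshr. On the far side the next peak, at Mettl4, was 5549 kb from Fshr. The interval measured 6.15 Mb, against a median of 78.4 kb, and 9 of 11414 intervals were longer. It held 6 whole coding genes, Fshr and Lhcgr among them. An interval picked for holding a whole gene tends to be long, so this rank does not measure how unusual the genes are. Of all coding genes, 21.6% lay farther from a peak than Lhcgr and 10.4% farther than Fshr. The files do not show whether repeats or unplaced sequence contribute to intervals of this kind, and their part was not tested.

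Insl3 lies on chromosome 8 from 71689252 to 71690577, is 1326 bp long and falls wholly within the annotated Jak3 gene. Its 2 peaks belonged to the genes on either side. Downstream a peak was 10.2 kb away and 1844 bp inside B3gnt3, a glycosyltransferase gene. It fell just outside the 10 kb window. Upstream a peak was 17.6 kb away and 118 bp inside Unc13a, a gene of synaptic vesicle release. The promoter of Unc13a printed above held 27 CpG and overlapped that peak by 99 bp.

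Taken by distance, the 10 genes spread over much of the range of all genes. The median distance to the nearest peak was 28.1 kb, against 10.6 kb for all coding genes. Scarb1 held its peak inside the gene. Hsd17b1 (7.74 kb), Insl3 (10.2 kb), Star (11.4 kb) and Cyp17a1 (17.0 kb) followed, near the middle of all genes, of which 45.7 to 51.8% lay farther from a peak. Cyp19a1 (39.3 kb) and Cyp11a1 (57.7 kb) came next, with 35.7 and 30.6% of genes farther. Lhcgr (119 kb, 21.6%), Fshr (388 kb, 10.4%) and Hsd3b1 (575 kb, 7.61%) were last. Within 1 kb of a gene end lay 15 of the 22 peaks in these windows (68.2%), against 63.4% of all peaks, and apart from the Scarb1 peak all of the 15 sat at the ends of other genes.

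**Figure D3:**
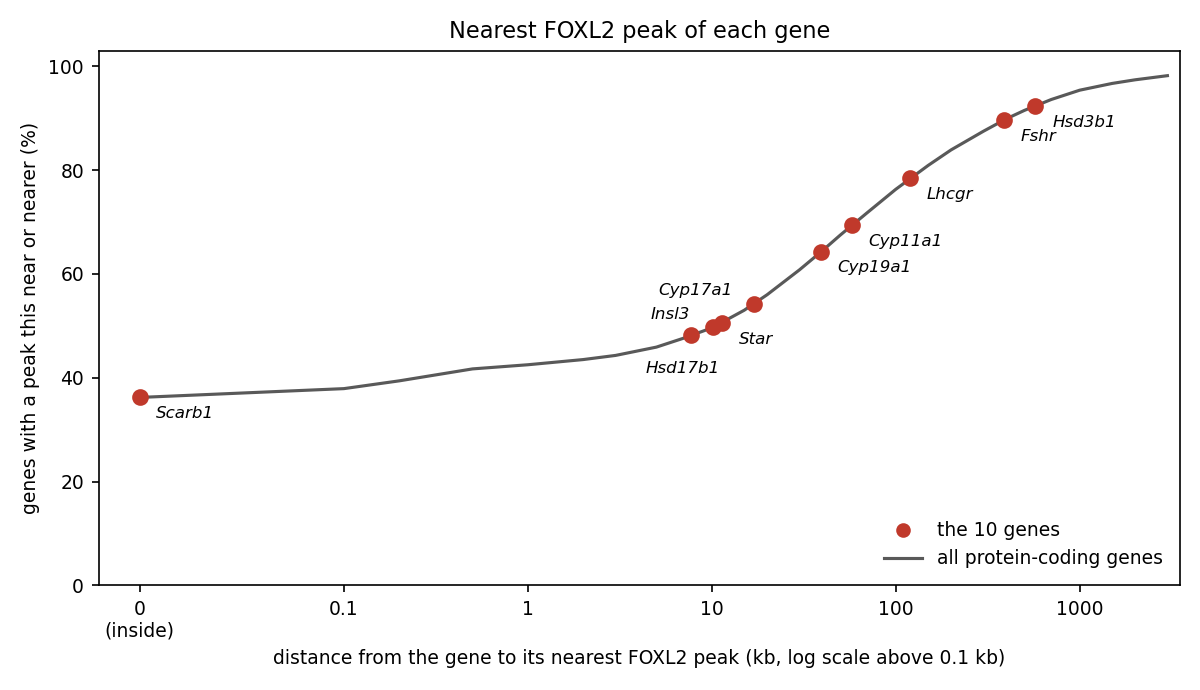
Distance from each gene to its nearest FOXL2 peak (horizontal axis, kb, log scale above 0.1 kb) against the share of genes with a peak at that distance or nearer (vertical axis, percent). The line is all protein-coding genes and the points are the 10 genes; the points run from Scarb1 at 0 kb to Hsd3b1 at 575 kb.

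Other genes of the steroid pathway were counted from 6 lists by role, 69 genes in all. A peak in the gene or within 10 kb was found for 2 of the 10 genes above (20%), against 43 of these 69 (62.3%) and 49.6% of all coding genes. A peak there that was nearest to the gene itself was found for 1 of 10 (10%), against 39 of 69 (56.5%) and 38.8% of all coding genes. The first contrast also narrowed in wider windows, with 5 of 10 (50%) against 45 of 69 (65.2%) within 20 kb and 6 of 10 (60%) against 51 of 69 (73.9%) within 50 kb. Being the nearest gene of a peak within 100 kb applied to 1 of 10, against 41 of 69 and 40.4% of all coding genes. The lists differ in their shares, and no test of them was made. For the genes of these lists, a peak of their own means one within 10 kb unless another distance is given.

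Cholesterol supply beyond Scarb1 and Star had the highest share, with a peak for 12 of 13 genes (92.3%, against 49.6% of all coding genes). For 11 of 13 the peak was their own (84.6%, against 38.8% of all coding genes). A peak of their own within 1 kb of a gene end was found for 11 of the 13, against 31.2% of all coding genes. The sterol synthesis genes Sqle (189 bp inside) and Hmgcs1 (236 bp) had one. The lysosomal cholesterol export genes Npc2 (234 bp inside) and Npc1 (575 bp outside) had one as well. Among genes of cholesterol ester turnover, Soat1 had a peak 188 bp and Lipe 505 bp inside. The STAR relatives Stard3 (164 bp) and Stard4 (302 bp) and the mitochondrial channel gene Vdac1 (672 bp) had one too. The peak counted for Tspo was nearest to Mcat, and Lss had none. Star was thus without a peak of its own while its relatives Stard3 and Stard4 carried one.

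Among the electron partners of the P450 enzymes, 3 of 5 had a peak within 10 kb (60%, against 49.6% of all coding genes). A peak of their own was found for 2 of 5 (40%, against 38.8% of all coding genes). Both counts are near the background. Fdx1, the ferredoxin that serves CYP11A1, had a peak 213 bp inside, and Por, the reductase that serves CYP17A1 and CYP19A1, had one 19246 bp inside. The peak at Cyb5r3 was nearest to Poldip3, and Fdxr and Cyb5a had none within 10 kb. Of 18 other steroid enzymes, 5 had a peak (27.8%, against 49.6% of all coding genes). Each of the 5 had one of its own (27.8%, against 38.8% of all coding genes). They were Hsd17b12 (167 bp inside), Srd5a3 (197 bp), Srd5a1 (333 bp), Hsd17b7 (456 bp outside) and Cyp7b1 (902 bp inside). The other 13 had none within 10 kb, among them the adrenal enzymes Cyp11b1, Cyp11b2 and Cyp21a1 and the Hsd3b genes of the list.

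Of the transcription factors that act on steroidogenic genes, 7 of 13 (53.8%) had a peak within 10 kb, near the 49.6% of all coding genes. The same 7 had a peak of their own there (38.8% of all coding genes). Within 100 kb, 9 of 13 had one (40.4% of all coding genes). Nr4a1 had 3 such peaks, the nearest to a gene end 552 bp inside. The cAMP-responsive factor genes Crem and Creb1 had 3 and 2, at 307 and 320 bp inside. Cebpb had a peak 658 bp inside and Sp1 one 869 bp outside. Gata6 and Gata4 had theirs deeper, 2364 and 23916 bp inside. Nr5a1, the main activator of the steroidogenic genes, had none within 10 kb and its nearest peak 34.0 kb away at Psmb7. The nearest peaks of Nr2f2 and Nr5a2 lay 20.0 and 73.3 kb away and were their own. Nr0b1 and Foxl2 itself had none within 10 kb either.

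The gonadotropin signalling list held hormone subunits, the signalling genes downstream of FSHR and LHCGR, and the INSL3 receptor. Of its 13 genes, 11 had a peak (84.6%, against 49.6% of all coding genes). A peak of their own was found for 9 of 13 (69.2%, against 38.8% of all coding genes). Gnas, the stimulatory G protein gene, had 3, the nearest to a gene end 2593 bp inside. The protein kinase A genes Prkacb (172 bp outside), Prkaca (322 bp outside), Prkar2b (747 bp inside) and Prkar1a (1949 bp inside) each had one. The adenylyl cyclase gene Adcy6 had a peak 606 bp inside, the arrestin gene Arrb1 one 692 bp inside and the phosphodiesterase gene Pde4d one 52520 bp inside. Rxfp2, the receptor of INSL3, had a peak 1914 bp inside. The peaks counted for the hormone subunit genes Cga and Lhb were nearest to Zfp292 and Ntf5, and Fshb and Arrb2 had none. A peak of their own within 1 kb of a gene end was found for 0 of the 7 steroid receptors, against 31.2% of all coding genes. Within 10 kb, 5 of the 7 had a peak of their own (71.4%, against 38.8% of all coding genes). The 5 included Pgr at 2577 bp inside, Nr3c2 at 4081 bp, Esr2 at 24582 bp and Nr3c1 at 27960 bp. Esr1 and Gper1 had none within 10 kb.

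The promoter table covered part of each list. The median CpG per listed promoter was 23 for cholesterol supply (7 genes), 19 for the regulators (8 genes), 17 for the electron partners (3 genes), 15.5 for gonadotropin signalling (10 genes), 9 for the steroid receptors (5 genes) and 5 for the other steroid enzymes (12 genes). In the same order, 6, 4, 2, 4, 1 and 3 of these genes had a peak within 1 kb of a listed start. Over all coding genes with a listed promoter, 6710 of 17492 had one. The shares of genes with a peak of their own, such as 5 of 7 steroid receptors and 2 of 5 electron partners, are another measure. They cover all genes of a list and peaks that need not lie at a start. The part of CpG content was not tested.

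**Figure D4:**
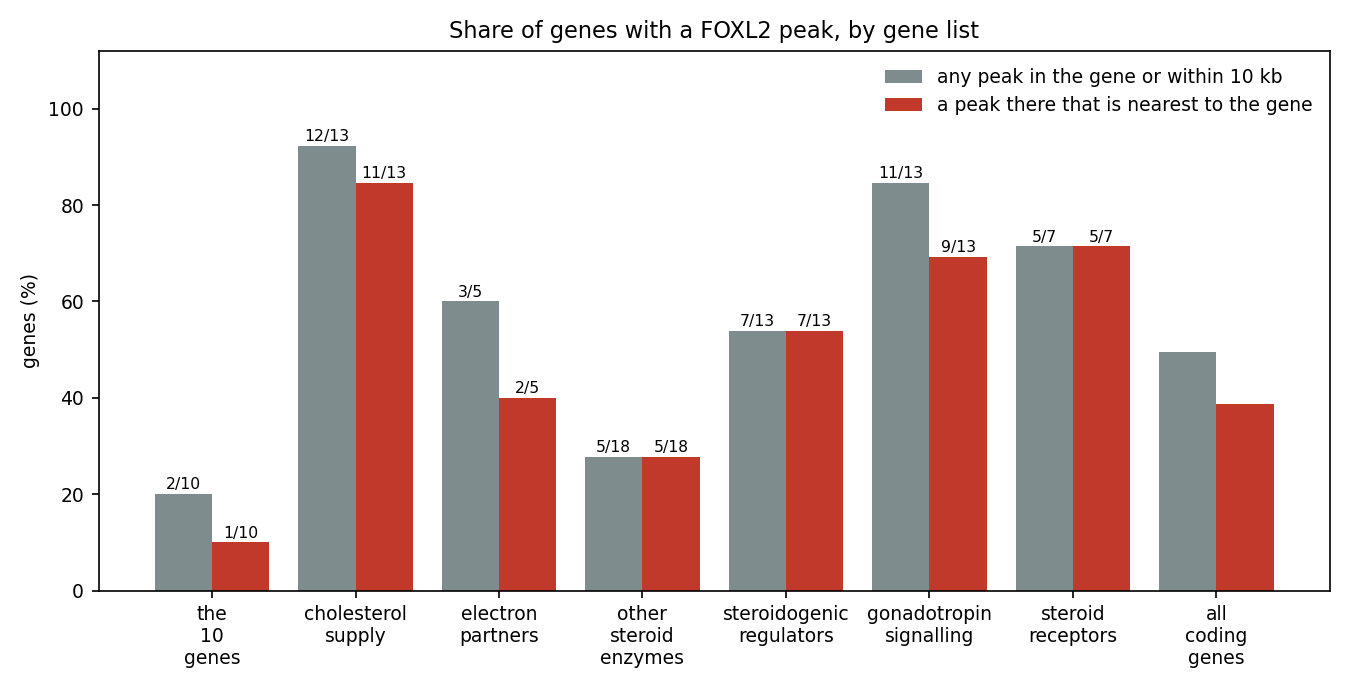
Percent of genes with a FOXL2 peak in the gene or within 10 kb (grey) and with such a peak that is nearest to the gene (red), for the 10 genes, the 6 pathway lists and all coding genes. The numbers over the bars are genes with a peak over genes in the list; the 10 genes stand at 2 and 1 of 10, the cholesterol supply list at 12 and 11 of 13.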

How the data were processed

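The series holds 2 FOXL2 ChIP-seq and 2 input samples of E14.5 CD1 mouse ovaries, grouped by their titles. Per the submitters' processing notes, Bowtie 1.2, Picard 1.110, bedtools 2.24.0 and HOMER 4.9 and build mm10 were used; which step each did, the threshold and the handling of replicates and input are not stated there. The deposited file, a single list by the authors, gives the position of 11438 peaks in bp and no other value. Positions were converted to 1-based coordinates, and 11435 on chromosomes 1 to 19, X and Y were used. Peak centres were compared with gene ends of 21887 protein-coding genes in a RefSeq table of GRCm38.p6, which gives no exons. The nearest gene is the one with the nearest end, and ties go to a gene that contains the centre. Windows were 100 and 10 kb, and a peak at a gene end lay within 1 kb of it. Promoter sequences and strand came from a second RefSeq table, which held 17492 coding genes. The work used Python 3.11.15 with numpy 2.4.6 and pandas 2.3.3, tested on simulated data. The 10 genes and the lists were chosen with earlier results of these data known, and the promoter CpG comparison was added after the values were seen. The text names the 10 genes, every gene nearest to a peak in their windows, and the pathway genes with a peak of their own within 10 kb; the other pathway genes are named where they are few or of interest by role (chosen after their values were seen). A few genes that this takes are not reported here. No tests were made, because the list has no value per sample.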

Additional observations from a re-analysis of the deposited data

How the results depend on the processing

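That 1 of the 22 peaks was nearest to one of the 10 genes, Scarb1, held in windows of 50 and 200 kb, with whole peaks, with peaks within 500 bp merged, with genes of all kinds and with distance to the gene body. Counts that depend on the window moved. The 22 peaks became 11 within 50 kb and 39 within 200 kb. The 2 genes with a peak within 10 kb became 1 within 5 kb, where Hsd17b1 dropped out, 5 within 20 kb (a distance chosen after seeing the data) and 6 within 50 kb, against 45.9, 56 and 67.5% of all genes. The forkhead motif was in 0 of 9 promoters with GTAAACA and in 1 with TAAACA. The count of pathway genes with a peak was 43 within 10 kb, 41 within 5 kb, 45 within 20 kb and 51 within 50 kb. No paired analysis was possible because the single list holds no value per replicate, and leaving out a replicate could not be run for the same reason. The nearest transcription start was not used in place of the gene end because the promoter table holds 6 of the 10 genes. With no score or depth, a stricter threshold could not be tried, and absence of a peak cannot be told from binding below the threshold.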
